A study of Homo sapiens with 17 samples.

Results

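NRF2, encoded by NFE2L2, is the transcription factor through which cells raise their defences against oxidants and electrophiles, and 34 genes of its pathway were followed here through BET bromodomain inhibition in a diffuse midline glioma (DMG) cell line. The 34 genes were listed by name as NRF2 and its regulators, NRF2 targets, and thioredoxin, glutathione, iron and pentose phosphate genes. The list was drawn up with earlier results of these data known. Its genes were then filtered on 1 measured value, the mean over 12 RNA-Seq libraries, which had to reach 10 normalized counts. Of the 34, 33 passed, out of 15599 of the 60664 genes in the table. GPX2, a glutathione peroxidase, fell below the minimum with a mean of 1.43 normalized counts, and the lowest members above it were AKR1B10 at 33.5 and SRXN1 at 39. Each of the 33 genes averaged at least 12.5 normalized counts in each group, so that none passed through a high group alone.

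The cells were SF8628, a K27M-mutant DMG line derived from a pontine glioma and grown as a monolayer in serum, so that all results describe 1 cell line. Cells received vehicle (DMSO) or 1 μM AZD5153, an inhibitor of the BET bromodomain proteins that read acetylated histones, for 24 or 48 hours. Each of the 4 groups (DMSO 24 hours, AZD5153 24 hours, DMSO 48 hours, AZD5153 48 hours) held 3 libraries, and no other agent or genetic change is named in the labels. The labels do not say whether the 3 libraries of a group came from separate cultures, so each p-value measures only the spread between these libraries.

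In unstressed cells KEAP1 binds NRF2 and directs it to the proteasome, and oxidants or electrophiles that modify KEAP1 let NRF2 accumulate in the nucleus. There NRF2 pairs with a small MAF protein, such as MAFG, and binds antioxidant response elements (AREs) near genes for thioredoxin and glutathione recycling, iron storage, NADPH supply and detoxification. NRF2 is mainly controlled at the level of its protein, which RNA-Seq does not measure. In tumours, gliomas among them, the pathway is known for its part in resistance to radiation and to drugs that act through oxidants.

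The libraries held 15759148 to 27335220 reads on genes (median 20737337), and the values below are counts divided by 1 size factor per library (normalized counts). HEXIM1, an inhibitor of the elongation factor P-TEFb and a usual readout of BET inhibition, rose 4.52-fold at 24 hours and 4.13-fold at 48 hours. CDKN1A, the cell cycle inhibitor p21, rose 27.4-fold and 16.4-fold. Of 12 glial markers, VIM, NES, CSPG4 and SOX2 were well above 0 in all libraries, PDGFRA stayed at or below 5.4 normalized counts, and OLIG1 and OLIG2 were at 0 throughout. NES (2.71-fold and 3.67-fold), CSPG4 (4.73-fold and 3.39-fold) and SOX2 fell with AZD5153 at 24 and 48 hours, and PTPRZ1 rose at both times. VIM was called lower at 24 hours alone (limma log2 fold change -0.28, adjusted p = 0.018). The VIM groups overlapped there (28352, 20900 and 19355 normalized counts with DMSO, 17915, 18011 and 19727 with AZD5153), and replicate 1 of DMSO was the highest. Of 5 fibroblast and pericyte markers, among them COL1A1 and PDGFRB, all fell with AZD5153 at both times, and their summed level went from between 47272 and 65517 normalized counts in the vehicle libraries to between 16126 and 19806 with AZD5153. The 4 endothelial markers summed to 331 to 643 in the vehicle and 59.1 to 92.5 with AZD5153, where PECAM1 and VWF fell at both times, KDR was 2.37-fold higher at 24 hours (adjusted p = 0.041), and CDH5 was at 0. The myeloid and lymphoid markers summed to at most 23.1, with AIF1 and CD3E at 0. Of 4 neuronal markers, SYT1 was present at 634 to 903 normalized counts, SNAP25 fell 2.89-fold and 2.63-fold, RBFOX3 was too low to test, and STMN2 was at 0. The part of these markers in the results below was not tested. The library of replicate 1 of DMSO at 24 hours stood apart from its group (second principal component 44.6 against 17.4 and 16.6). Where leaving it out changed a call of a member or moved a called value by over 1.5 times, the value without it is given below. For the markers and the further genes no values without this library are given.

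AZD5153 raised most of the members, and the strongest rises were shared by both times. At 24 hours, 22 of the 33 genes were higher with AZD5153 than with DMSO and 7 were lower by limma at an adjusted p under 0.05 (Benjamini-Hochberg over all 15599 genes). Over all genes tested, 33.9% were called higher and 34.6% lower in that comparison. At 48 hours, 23 members were higher and 7 lower, beside 33.1% and 33.9% of all genes. Over both times together the members again split into 23 higher and 7 lower, against 37.7% and 38.0% of all genes. The median log2 fold change of the members was 0.51 at 24 hours and 0.58 at 48 hours, where that of all genes was 0.00. Because the members were chosen with earlier results of these data known, these counts and medians describe the list and do not test it. Division by size factors holds the median of all genes near 0.00, so each rise or fall is relative to the other genes. A change in the total RNA of the cells would not be seen. In bulk RNA a change in RNA per cell cannot be told apart from a change in the share of cells that hold it.

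Larger changes were counted in the same way. At least 2-fold higher were 11 members at 24 hours and 12 at 48 hours, where 10.8% and 8.84% of all genes tested were called so. At least 2-fold lower were 2 members (AKR1B10 and AKR1C2) at 24 hours and 1 (SLC7A11) at 48 hours, where 15.7% and 16.5% of all genes were. The 10 members at least 2-fold higher at both times were OSGIN1, NQO1, TXNRD1, PRDX1, EPHX1, FTL, FTH1, SRXN1, GCLC and GCLM. By direction, 21 members were higher at both times, 6 lower at both (KEAP1, SLC7A11, AKR1B1, AKR1B10, AKR1C2 and UGDH), 2 higher at 48 hours alone (PRDX6 and AKR1C1), 1 lower at 24 hours alone (NFE2L2), and 1 higher at 24 and lower at 48 hours (MAFG). BLVRB and TKT passed the test at neither time. How many of all genes were called the same way at both times was not counted. Such shares can be no larger than those at 48 hours, which were 33.1% higher, 33.9% lower and 8.84% at least 2-fold higher.

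**Figure D1:**
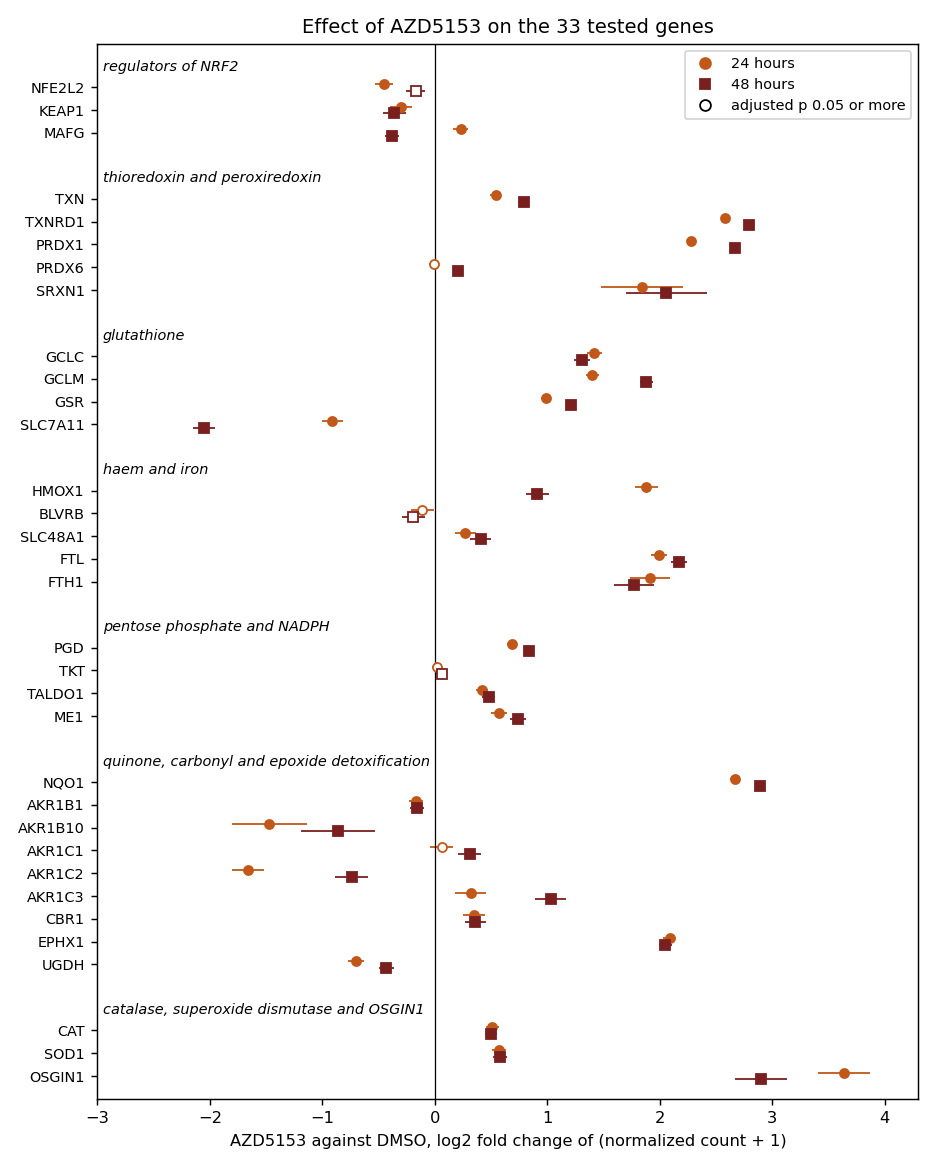
Log2 fold change of AZD5153 against DMSO for the 33 tested genes, grouped by role, at 24 hours (circles) and 48 hours (squares), with standard errors as bars and open symbols for an adjusted p of 0.05 or more. OSGIN1 (3.64 at 24 hours), NQO1 and TXNRD1 lie farthest to the right, and SLC7A11 at 48 hours (-2.05) lies farthest to the left.

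Promoter sequences were available from RefSeq (GRCh38.p14) for 26 of the 34 genes, as windows from 250 bases before to 50 bases after an annotated start. PRDX1, PRDX6, GSR, SLC7A11, HMOX1, FTH1, AKR1B10 and SOD1 had no window. The ARE core TGACNNNGC, searched on both strands, lay in 9 of the 33 windows of these genes, against 13.3% of all 35116 windows of this length. The 8 genes with the core in a window were KEAP1, TXNRD1, GCLM, GPX2, PGD, ME1, CBR1 and EPHX1. The more specific form TGACTCAGC lay in 0.561% of all windows and, among the members, in that of ME1 alone. A match is a description of letters and says nothing of binding. Sequence outside the windows was not searched, so a gene without a core here, such as NQO1, may have one elsewhere. For 4 of these genes that rose at both times, 1 window each is shown on the strand of the gene, 5′ to 3′, with the ARE core in capitals. Those of PGD and CBR1, which also rose at both times, are not shown. Other windows of EPHX1 (chr1:225809874-225810173 and chr1:225823961-225824260) held no core, and a further window of TXNRD1 (chr12:104286782-104287081) held 1. A core on the opposite strand appears as its reverse complement, and positions are those of its first printed base relative to the start of the gene.
TXNRD1 (chr12:104215529-104215828, plus strand, cores at -99 and, on the opposite strand, -8): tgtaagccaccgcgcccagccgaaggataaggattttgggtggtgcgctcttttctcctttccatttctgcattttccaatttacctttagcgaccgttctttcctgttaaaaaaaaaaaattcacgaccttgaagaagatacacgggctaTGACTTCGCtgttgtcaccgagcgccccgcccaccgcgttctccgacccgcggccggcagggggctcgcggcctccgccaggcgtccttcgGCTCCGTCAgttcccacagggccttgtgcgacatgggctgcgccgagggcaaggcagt
GCLM (chr1:93909381-93909680, minus strand, core on the opposite strand at -34): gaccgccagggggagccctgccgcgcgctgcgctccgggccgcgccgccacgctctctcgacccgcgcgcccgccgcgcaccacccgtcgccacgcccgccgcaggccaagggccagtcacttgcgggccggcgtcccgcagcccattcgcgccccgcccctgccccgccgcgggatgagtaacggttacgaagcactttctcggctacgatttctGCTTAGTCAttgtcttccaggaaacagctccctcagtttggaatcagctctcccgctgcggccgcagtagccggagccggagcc
ME1 (chr6:83431002-83431301, minus strand, the more specific form at -137 and a core on the opposite strand at 12): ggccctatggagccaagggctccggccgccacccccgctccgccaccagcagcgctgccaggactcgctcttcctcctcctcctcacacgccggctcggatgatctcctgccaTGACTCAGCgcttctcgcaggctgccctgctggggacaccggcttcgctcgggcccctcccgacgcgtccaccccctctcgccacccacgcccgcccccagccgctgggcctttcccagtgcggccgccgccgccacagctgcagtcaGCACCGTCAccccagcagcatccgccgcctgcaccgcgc
EPHX1 (chr1:225825104-225825403, plus strand, an internal start, core at -78): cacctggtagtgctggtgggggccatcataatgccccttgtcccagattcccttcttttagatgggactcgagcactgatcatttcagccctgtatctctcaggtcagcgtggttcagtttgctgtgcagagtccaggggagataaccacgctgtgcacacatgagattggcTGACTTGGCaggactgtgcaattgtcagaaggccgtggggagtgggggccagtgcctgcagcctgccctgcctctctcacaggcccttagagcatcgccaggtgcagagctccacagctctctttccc

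NRF2 and the regulators KEAP1 and MAFG changed by less than 1.5-fold, mostly downward. NFE2L2 (ENSG00000116044), the gene of NRF2 itself, read 2798, 2499 and 2172 normalized counts with DMSO and 1785, 1671 and 2009 with AZD5153 at 24 hours. At 48 hours it read 1839, 1838 and 1776 with DMSO and 1577, 1606 and 1671 with AZD5153. All 3 treated libraries lay below the 3 vehicle libraries at both times, and the vehicle itself was lower at 48 than at 24 hours. NFE2L2 was 1.37-fold lower at 24 hours (log2 fold change -0.45 ± 0.0821 SE, adjusted p = 0.00017) and did not pass at 48 hours (-0.17 ± 0.0821, adjusted p = 0.083), although it did with equal library totals (-0.34, adjusted p = 0.002), quantile normalization (-0.27, adjusted p = 0.0069) or a fit of the 48-hour groups alone (-0.17, adjusted p = 0.0019). NFE2L2 overlaps HNRNPA3 and AGPS on the opposite strand (means of 8653 and 2573 normalized counts), and the strand setting of the counting is not given in the sources used here.

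KEAP1, the adaptor that marks NRF2 for degradation, read 1505, 1939 and 2135 normalized counts with DMSO and 1508, 1583 and 1404 with AZD5153 at 24 hours. The groups overlapped there through replicate 1 of DMSO. KEAP1 was called lower at 24 hours (log2 fold change -0.30, adjusted p = 0.016), but the call was lost when replicate 2 of DMSO (-0.26, adjusted p = 0.059), replicate 3 of DMSO (-0.19, adjusted p = 0.081) or replicate 3 of AZD5153 (-0.25, adjusted p = 0.065) was left out, and in a fit of the 24-hour groups alone (-0.30, adjusted p = 0.0535). At 48 hours KEAP1 read 1702, 1708 and 1481 with DMSO and 1282, 1238 and 1286 with AZD5153, groups that did not overlap, and was 1.29-fold lower (-0.36, adjusted p = 0.005). MAFG, a small MAF partner of NRF2, changed direction between the times. It was 1.17-fold higher at 24 hours (2578, 3059 and 3135 with DMSO, 3524, 3316 and 3436 with AZD5153) and 1.30-fold lower at 48 hours (3496, 3557 and 3734 with DMSO, 2731, 2747 and 2830 with AZD5153), without overlap at either time. Scaled to equal library totals, the rise of MAFG at 24 hours did not pass (log2 fold change 0.11, adjusted p = 0.13), and with replicate 1 of DMSO left out it was 0.14 (adjusted p = 0.0091) in place of 0.23. MAFG shares an overlap on the same strand with SIRT7, which had a mean of 1638 normalized counts.

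The thioredoxin genes held some of the largest rises. TXNRD1 (ENSG00000198431, chr12:104215779-104350307), the cytosolic reductase that passes electrons from NADPH to thioredoxin, read 7648, 8239 and 7953 normalized counts with DMSO and 47527, 47088 and 47838 with AZD5153 at 24 hours. The 48-hour libraries read 6763, 6497 and 6656 with DMSO and 45597, 46408 and 45725 with AZD5153. The treated libraries lay within a narrow band far above the vehicle, 5.98-fold higher at 24 hours (log2 fold change 2.58 ± 0.0387, adjusted p = 2.4e-16) and 6.92-fold higher at 48 hours (2.79 ± 0.0387, adjusted p = 4.2e-17). TXN, its substrate thioredoxin, rose less, 1.45-fold (log2 0.54, adjusted p = 4e-08) and 1.72-fold (0.79, adjusted p = 4.4e-10). The ratio of TXNRD1 to TXN normalized counts was 1.01 ± 0.0744 (SD, n = 3) with DMSO and 4.15 ± 0.215 with AZD5153 at 24 hours. The corresponding 48-hour ratios were 1.03 ± 0.0302 and 4.14 ± 0.0811.

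PRDX1 (ENSG00000117450), a peroxiredoxin that reduces peroxides with electrons from thioredoxin, read 5374, 5768 and 5310 normalized counts with DMSO and 27203, 26806 and 26071 with AZD5153 at 24 hours. Its 48-hour values were 4715, 4651 and 4679 with DMSO and 30240, 29752 and 29592 with AZD5153. The rise was 4.87-fold at 24 hours (log2 fold change 2.28 ± 0.041, adjusted p = 1.1e-15) and 6.38-fold at 48 hours (2.67 ± 0.041, adjusted p = 9.8e-17), with every treated library above every vehicle library. PRDX6, the peroxiredoxin that works with glutathione, behaved otherwise. Its groups overlapped at 24 hours (6661 to 7028 normalized counts with DMSO, 6745 to 6885 with AZD5153, adjusted p = 0.89), and it was 1.16-fold higher at 48 hours (log2 0.21, adjusted p = 0.0004). The 48-hour call for PRDX6 was lost with equal library totals (0.04, adjusted p = 0.43) and with quantile normalization (0.02, adjusted p = 0.69), and equal totals called it lower at 24 hours (-0.13, adjusted p = 0.013). The ratio of PRDX1 to PRDX6 counts was 0.801 ± 0.0385 with DMSO and 3.92 ± 0.0463 with AZD5153 at 24 hours (SD, n = 3), and 0.789 ± 0.0134 against 4.35 ± 0.153 by 48 hours. SRXN1, the sulfiredoxin that repairs overoxidized peroxiredoxins, was counted at a low level, at 25.9, 17.1 and 16.9 normalized counts with DMSO and 63, 87 and 69.8 with AZD5153 at 24 hours. It was 3.67-fold higher at 24 hours and 4.02-fold higher at 48 hours without overlap of the groups, but 90.4% of its 100-base windows also occur in a readthrough transcript (mean 3.26 normalized counts), which leaves its level uncertain.

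Among the glutathione genes, the synthesis and recycling enzymes rose while the cystine importer fell. GCLC and GCLM encode the catalytic and the modifier subunit of glutamate-cysteine ligase, the first enzyme of glutathione synthesis. GCLM (ENSG00000023909) read 1360, 1389 and 1298 normalized counts with DMSO and 3737, 3401 and 3580 with AZD5153 at 24 hours, and 801, 855 and 869 against 3088, 3017 and 3209 at 48 hours. GCLC read 721, 736 and 692 against 1840, 1868 and 2059 at 24 hours, and 604, 674 and 702 against 1629, 1642 and 1631 at 48 hours. Neither subunit overlapped between treatments at either time. GCLM was 2.65-fold higher at 24 hours (log2 fold change 1.40, adjusted p = 4.7e-12) and 3.69-fold higher at 48 hours (1.88, adjusted p = 2e-13). GCLC was 2.68-fold (1.42, adjusted p = 3.6e-11) and 2.48-fold higher (1.31, adjusted p = 9.1e-11). The ratio of GCLM to GCLC counts was 1.88 ± 0.00585 with DMSO and 1.86 ± 0.151 with AZD5153 at 24 hours, and 1.28 ± 0.0438 and 1.90 ± 0.0649 at 48 hours (SD, n = 3). At 48 hours the vehicle libraries had the lower ratio.

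GSR, the reductase that restores glutathione from its oxidized form, read 3202 to 3442 normalized counts with DMSO and 6686 to 6692 with AZD5153 at 24 hours, and 2658 to 2745 against 6137 to 6374 at 48 hours. It was 1.99-fold (log2 0.99, adjusted p = 1.4e-11) and 2.32-fold higher (1.21, adjusted p = 1.4e-12). SLC7A11 (ENSG00000151012), the light chain of the cystine-glutamate exchanger that supplies cysteine for glutathione, went the other way. It read 1013, 910 and 784 normalized counts with DMSO and 471, 472 and 491 with AZD5153 at 24 hours. By 48 hours the counts were 615, 648 and 651 with DMSO and 166, 148 and 145 with AZD5153. SLC7A11 was thus 1.89-fold lower at 24 hours (log2 fold change -0.91 ± 0.0948, adjusted p = 4e-07) and 4.17-fold lower at 48 hours (-2.05 ± 0.0948, adjusted p = 2.4e-11), with no overlap at either time. GPX2 was not tested, at 0 to 3.6 normalized counts in the 12 libraries.

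**Figure D2:**
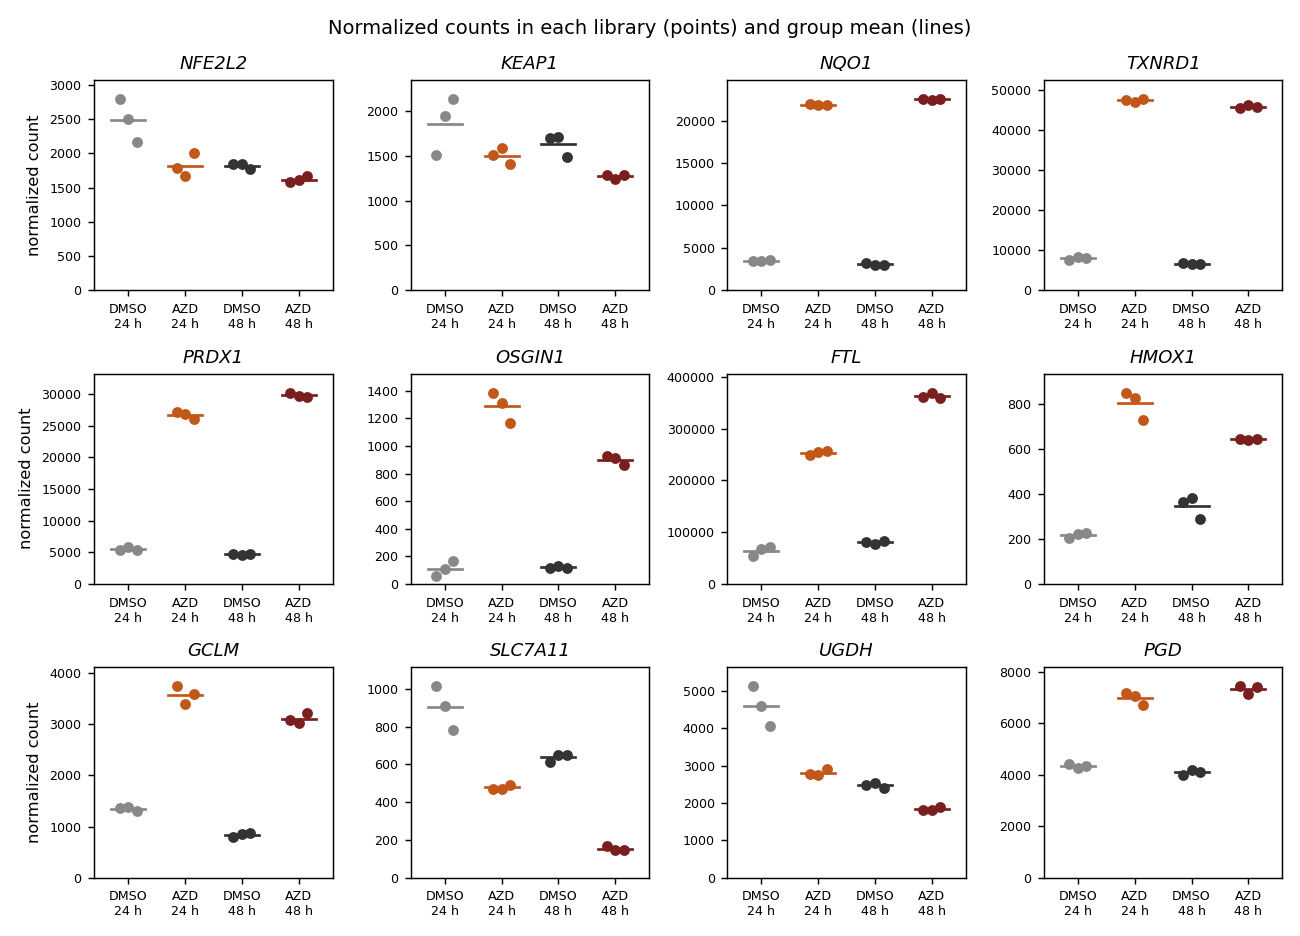
Normalized counts (linear axes from 0) of 12 genes in each of the 12 libraries, as points by treatment and time, with a line at the mean of each group of 3. TXNRD1, PRDX1, NQO1, OSGIN1 and FTL have all treated libraries far above the vehicle, SLC7A11 and UGDH have them below, and KEAP1 overlaps at 24 hours.

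The haem and iron genes among the members rose, apart from BLVRB. HMOX1, the inducible haem oxygenase that releases iron from haem, read 205, 223 and 226 normalized counts with DMSO and 851, 827 and 731 with AZD5153 at 24 hours, and 365, 381 and 289 against 646, 642 and 645 at 48 hours. The treated libraries lay above the vehicle at both times, but the vehicle rose and the treated libraries fell between them. HMOX1 was 3.69-fold higher at 24 hours (log2 fold change 1.88 ± 0.102, adjusted p = 1.7e-10) and 1.87-fold higher at 48 hours (0.91 ± 0.102, adjusted p = 9.2e-07). BLVRB, biliverdin reductase B, differed by -0.11 on the log2 scale at 24 hours (adjusted p = 0.35) and by -0.19 at 48 hours (adjusted p = 0.12). With replicate 1 of DMSO left out (398 normalized counts, against 563 and 508), BLVRB was called lower at 24 hours (-0.25, adjusted p = 0.0088), and equal totals (-0.36, adjusted p = 0.0054) and a fit of the 48-hour groups alone (-0.19, adjusted p = 0.018) called it lower at 48 hours. SLC48A1, a haem transporter, was 1.21-fold higher at 24 hours (0.27, adjusted p = 0.018) and 1.33-fold higher at 48 hours (0.41, adjusted p = 0.0012). Its 24-hour call was lost when replicate 1 of DMSO (0.21, adjusted p = 0.05), replicate 1 of AZD5153 (0.24, adjusted p = 0.062) or replicate 2 of AZD5153 (0.21, adjusted p = 0.084) was left out. It was also lost with equal library totals (0.15, adjusted p = 0.17), with scaling to 7 stable genes (0.22, adjusted p = 0.057) and in a fit of the 24-hour groups alone (0.27, adjusted p = 0.058). SLC48A1 also overlaps HDAC7 on the opposite strand (mean 816 normalized counts).

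FTL and FTH1 encode the light and heavy chains of ferritin, the shell in which cells store iron. FTL (ENSG00000087086, chr19:48965309-48966879) read 54469, 67067 and 70908 normalized counts with DMSO and 249344, 253823 and 256567 with AZD5153 at 24 hours. The later libraries read 80271, 77523 and 83595 with DMSO and 360309, 369278 and 358994 with AZD5153. It was 3.95-fold higher at 24 hours (log2 fold change 1.99 ± 0.0704, adjusted p = 1.2e-12) and 4.51-fold higher at 48 hours (2.17 ± 0.0704, adjusted p = 4.2e-13), without overlap. FTL is among the most abundant genes of these libraries, and quantile normalization, which gives all libraries the same set of values, reduced its 24-hour change to 0.85 (adjusted p = 2e-08). FTH1 read 2528, 4641 and 5294 with DMSO and 14439, 15182 and 15115 with AZD5153 at 24 hours, and 5658, 5405 and 5561 against 17837, 21139 and 18044 at 48 hours. The lowest value by far was replicate 1 of DMSO at 24 hours. FTH1 was 3.59-fold higher at 24 hours (1.91 ± 0.177, adjusted p = 9.5e-08, and 1.59 without that library) and 3.43-fold higher at 48 hours (1.77 ± 0.177, adjusted p = 2.3e-07). Of the 100-base windows of FTH1, 20.7% also occur in other annotated genes, against 3.37% for FTL, and its 25 annotated pseudogenes summed to 2.15% of its counts.

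FTL took more reads than any other member. The 34 genes took 0.752% to 0.852% of the reads on genes with DMSO and 2.14% to 2.17% with AZD5153 at 24 hours, and 0.877% to 0.901% against 2.67% to 2.75% at 48 hours. FTL made up 0.283% to 0.446% of the reads across the vehicle libraries and 1.70% to 1.76% with AZD5153 at 48 hours. By read count it ranked 6 to 10 among all genes in the vehicle libraries, 2 with AZD5153 at 24 hours and 1 with AZD5153 at 48 hours, where FN1, fibronectin, ranked 1 in the other groups.

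**Figure D3:**
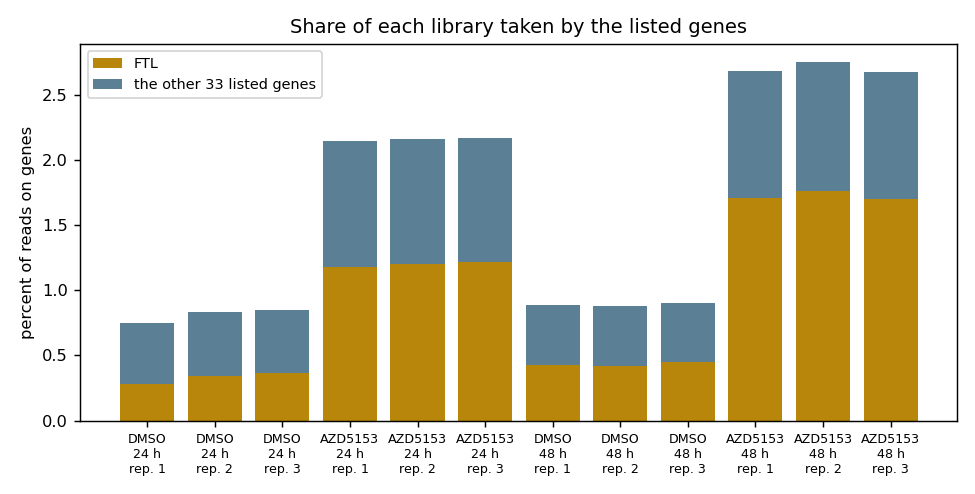
Percent of the reads on genes in each of the 12 libraries taken by FTL (lower segment) and by the other 33 listed genes (upper segment), with bars from 0. The bars of the AZD5153 libraries reach 2.14% or more, and no vehicle library exceeds 0.901%.

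Of the 4 pentose phosphate and NADPH genes, 3 rose, each by less than 2-fold. PGD, 6-phosphogluconate dehydrogenase, which makes NADPH in the oxidative pentose phosphate branch, read 4412, 4254 and 4331 normalized counts with DMSO and 7179, 7054 and 6682 with AZD5153 at 24 hours, and 3983, 4178 and 4112 against 7420, 7137 and 7417 at 48 hours. The groups did not overlap, and PGD was 1.61-fold (log2 fold change 0.69, adjusted p = 1.1e-09) and 1.79-fold higher (0.84, adjusted p = 9.9e-11). ME1, the cytosolic malic enzyme that makes NADPH from malate, was 1.48-fold (0.57, adjusted p = 3.6e-06) and 1.67-fold higher (0.74, adjusted p = 1.9e-07), from 1554 to 1982 counts with DMSO to 2457 to 2698 with AZD5153 at 24 hours. TALDO1, a transaldolase of the non-oxidative branch, was 1.34-fold (0.42, adjusted p = 7.9e-06) and 1.40-fold higher (0.48, adjusted p = 1.6e-06). TKT, the transketolase of the same branch, differed by 0.02 ± 0.0453 (adjusted p = 0.65) and 0.06 ± 0.0453 (adjusted p = 0.26) on the log2 scale, and its groups overlapped at 24 hours (12291 to 13738 against 12945 to 13595). The direction of TKT depended on the scaling and was lower with quantile normalization at both times (-0.19 and -0.25).

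The detoxification genes split. NQO1 (ENSG00000181019, chr16:69706996-69726668), the quinone reductase most used as a readout of NRF2, read 3384, 3388 and 3547 normalized counts with DMSO and 21942, 21821 and 21834 with AZD5153 at 24 hours. Its 48-hour counts were 3179, 2981 and 2943 with DMSO and 22583, 22424 and 22576 with AZD5153. The treated libraries agreed closely and lay 6.36-fold above the vehicle at 24 hours (log2 fold change 2.67 ± 0.0415, adjusted p = 2.4e-16) and 7.42-fold at 48 hours (2.89 ± 0.0415, adjusted p = 4.9e-17). EPHX1, the microsomal epoxide hydrolase, read 568, 559 and 601 against 2490, 2575 and 2310 at 24 hours, and 697, 687 and 693 against 2855, 2876 and 2868 at 48 hours. It was 4.27-fold (2.09 ± 0.0573, adjusted p = 6.7e-14) and 4.14-fold higher (2.05 ± 0.0573, adjusted p = 9.3e-14). EPHX1 overlaps TMEM63A on the opposite strand (mean 1368 normalized counts). CBR1, a carbonyl reductase, was 1.27-fold (0.35, adjusted p = 0.0041) and 1.29-fold higher (0.36, adjusted p = 0.003), and shares 25.4% of its windows with another annotated gene. CBR1 also overlaps SETD4 on the opposite strand (mean 551 normalized counts). The 48-hour call of CBR1 was lost with equal library totals (0.19, adjusted p = 0.089).

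The aldo-keto reductases, which reduce carbonyls and steroids, did not move as a family. AKR1C1, AKR1C2 and AKR1C3 lie within chr10:4963253-5107686, and 27.8% of the 100-base windows of AKR1C2 occur in other genes (25.6% in AKR1C1), so reads could be split between them. AKR1C2 was 3.14-fold lower at 24 hours (463, 481 and 474 normalized counts with DMSO, 143, 126 and 182 with AZD5153, log2 fold change -1.66, adjusted p = 4.1e-08). At 48 hours it was 1.68-fold lower (215, 270 and 282 against 136, 169 and 152, log2 -0.74, adjusted p = 0.00027). AKR1C1 overlapped between treatments at 24 hours (372 to 446 against 403 to 476, adjusted p = 0.62) and was 1.24-fold higher at 48 hours (0.31, adjusted p = 0.012), a call lost when replicate 3 of DMSO at that time was left out (0.26, adjusted p = 0.0541) and with equal library totals (0.14, adjusted p = 0.23). The ratio of AKR1C1 to AKR1C2 counts was 0.881 ± 0.0706 with DMSO and 2.95 ± 0.549 with AZD5153 at 24 hours (SD, n = 3), and 1.04 ± 0.221 against 2.14 ± 0.314 by 48 hours. AKR1C3 was 1.26-fold higher at 24 hours (106, 102 and 123 against 129, 127 and 160, log2 0.32, adjusted p = 0.0458) and 2.05-fold higher at 48 hours (114, 137 and 138 against 271, 272 and 254, log2 1.03, adjusted p = 5.7e-06). Its 24-hour call was lost without replicate 1 or 2 of DMSO (0.30 and 0.27, adjusted p = 0.091 and 0.14) and without replicate 3 of AZD5153 (0.22, adjusted p = 0.20). DESeq2 (0.33, adjusted p = 0.057), equal library totals (0.20, adjusted p = 0.20), scaling to 7 stable genes (0.28, adjusted p = 0.091), no minimum mean (0.32, adjusted p = 0.074) and a fit of the 24-hour groups alone (0.32, adjusted p = 0.10) lost it too.

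AKR1B10 was counted at 12.2 to 69.5 normalized counts and was 2.81-fold lower at 24 hours (log2 fold change -1.47, adjusted p = 0.0011) and 1.87-fold lower at 48 hours (-0.86, adjusted p = 0.032). The 48-hour call was lost without replicate 1 or 3 of either treatment (-0.80 to -0.72, adjusted p 0.081 to 0.12), with quantile normalization (-0.52, adjusted p = 0.18) and with no minimum mean (-0.86, adjusted p = 0.074). AKR1B1, aldose reductase, was 1.13-fold lower at 24 hours, where its groups overlapped (5632, 6489 and 6591 against 5795, 5597 and 5182, log2 -0.17, adjusted p = 0.02), and 1.12-fold lower at 48 hours (-0.16, adjusted p = 0.03). Its 24-hour call was lost without replicate 2 or 3 of DMSO or replicate 3 of AZD5153 (adjusted p 0.077 to 0.10), with eBayes without trend (0.06) and in a fit of the 24-hour groups alone (0.07). Its 48-hour call was lost without replicate 1 or 2 of DMSO or any replicate of AZD5153 (adjusted p 0.053 to 0.11), with no minimum mean (0.059), with scaling to 7 stable genes (0.11) and with eBayes without trend (0.079). UGDH, which makes the glucuronic acid donor for conjugation, read 5122, 4605 and 4069 with DMSO and 2769, 2754 and 2912 with AZD5153 at 24 hours, and 2473, 2537 and 2415 against 1802, 1803 and 1902 at 48 hours. It was lower without overlap at both times, 1.64-fold (-0.70, adjusted p = 1.6e-07) and 1.35-fold (-0.43, adjusted p = 3.6e-05), and its vehicle level at 48 hours was already below its treated level at 24 hours.

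CAT and SOD1, the catalase that splits hydrogen peroxide and the cytosolic superoxide dismutase, rose by similar amounts at both times. CAT went from 1713 to 1944 normalized counts with DMSO to 2515 to 2608 with AZD5153 at 24 hours and was 1.42-fold higher at each time (log2 fold change 0.51 and 0.50, adjusted p = 8e-07 and 9.4e-07). SOD1 was 1.48-fold (0.57, adjusted p = 8.8e-07) and 1.49-fold higher (0.58, adjusted p = 8.2e-07). OSGIN1 (ENSG00000140961, chr16:83931311-83966332), an oxidative stress-induced growth inhibitor, had the largest rise of the 33 genes at 24 hours. Its 48-hour rise was close to that of NQO1 (log2 2.89 ± 0.0415). OSGIN1 read 59.7, 108 and 165 normalized counts with DMSO and 1386, 1314 and 1165 with AZD5153 at 24 hours, and 116, 128 and 116 against 924, 911 and 859 at 48 hours. OSGIN1 was 11.6-fold higher at 24 hours (3.64 ± 0.233, adjusted p = 1.1e-09, and 3.26 without replicate 1 of DMSO) and 7.49-fold higher at 48 hours (2.90 ± 0.233, adjusted p = 1.8e-08). It overlaps MLYCD on the same strand, which had a mean of 218 normalized counts.

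Whether the effect of AZD5153 differed between 24 and 48 hours was tested by the interaction of treatment and time, and 13 members passed, 10 with a higher and 3 with a lower log2 effect at 48 hours. Over all genes tested, 14.4% were called higher and 10.1% lower. The higher effects were those of TXN, TXNRD1, PRDX1, PRDX6, GCLM, GSR, NQO1, AKR1C2, AKR1C3 and UGDH, between 0.21 for TXNRD1 and 0.92 for AKR1C2 on the log2 scale. For AKR1C2 and UGDH this was a smaller fall, for PRDX6 a change from -0.01 to 0.21, and for the other 7 a larger rise. The lower effects were those of SLC7A11 (-1.15 ± 0.134, adjusted p = 2.4e-05), HMOX1 (-0.97 ± 0.145, adjusted p = 0.0002) and MAFG (-0.61 ± 0.0913, adjusted p = 0.0002). UGDH stood at the threshold (adjusted p = 0.0499) and was lost in each fit that left out 1 library except that without replicate 3 of DMSO at 24 hours (0.19, adjusted p = 0.0508, with replicate 1 of DMSO at 24 hours left out). Quantile normalization ended the calls of TXN, TXNRD1, PRDX6, GSR, NQO1 and UGDH and gained that of FTL (1.19, adjusted p = 9.5e-07). Equal library totals ended those of PRDX6, GSR and UGDH, and eBayes without trend those of TXN (adjusted p = 0.0501), PRDX6 (0.0506) and UGDH. UGDH was further lost with edgeR, with no minimum mean, with a pseudocount of 0.5 and with the replicate block, and scaling to 7 stable genes gained NFE2L2 (0.35, adjusted p = 0.038). The call of FTL was also gained with replicate 1 of DMSO at 24 hours left out (0.30, adjusted p = 3.8e-05, against 0.18, adjusted p = 0.20). Those of NFE2L2 (0.37), ME1 (0.25) and OSGIN1 (-1.08) were gained with replicate 3 of DMSO at 24 hours left out, as was that of NFE2L2 (0.35) with replicate 3 of AZD5153 left out.

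Time in culture also moved the members without the drug. From 24 to 48 hours in DMSO, 8 members rose and 12 fell, beside 16.4% and 19.3% of all genes. All 5 haem and iron genes rose, by 0.34 (FTL) to 0.65 (HMOX1) on the log2 scale, and MAFG, EPHX1 and CAT rose with them. With replicate 1 of DMSO at 24 hours left out, these 5 genes were still called higher, by 0.16 for FTH1 (against 0.48), 0.22 for FTL (against 0.34), 0.23 for BLVRB (against 0.37), 0.32 for SLC48A1 and 0.61 for HMOX1. UGDH and AKR1C2 (both -0.89), GCLM (-0.68) and AKR1C1 (-0.67) fell most. With that library left out the counts of members became 8 and 16, as KEAP1 (-0.32, against -0.18), TALDO1 (-0.19, against -0.15), AKR1B1 (-0.18, against -0.11) and SOD1 (-0.18, against -0.11) were then also lower. With AZD5153, 7 members rose and 7 fell between the times, where 15.8% and 13.8% of all genes did. SLC7A11 fell further (-1.64 ± 0.0948, adjusted p = 8e-09), AKR1C3 rose (0.94 ± 0.137, adjusted p = 9.7e-05), and TXNRD1, NQO1 and TXN differed by -0.05, 0.04 and -0.05 (adjusted p = 0.38, 0.48 and 0.48). Of the 10 genes with a higher effect at 48 hours, all but AKR1C3 fell between the times in DMSO. The interaction subtracts the change in DMSO and rests on the same 6 vehicle libraries. A fall in DMSO is thus favoured among genes picked by the interaction, and no conclusion is drawn from this tally.

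**Figure D4:**
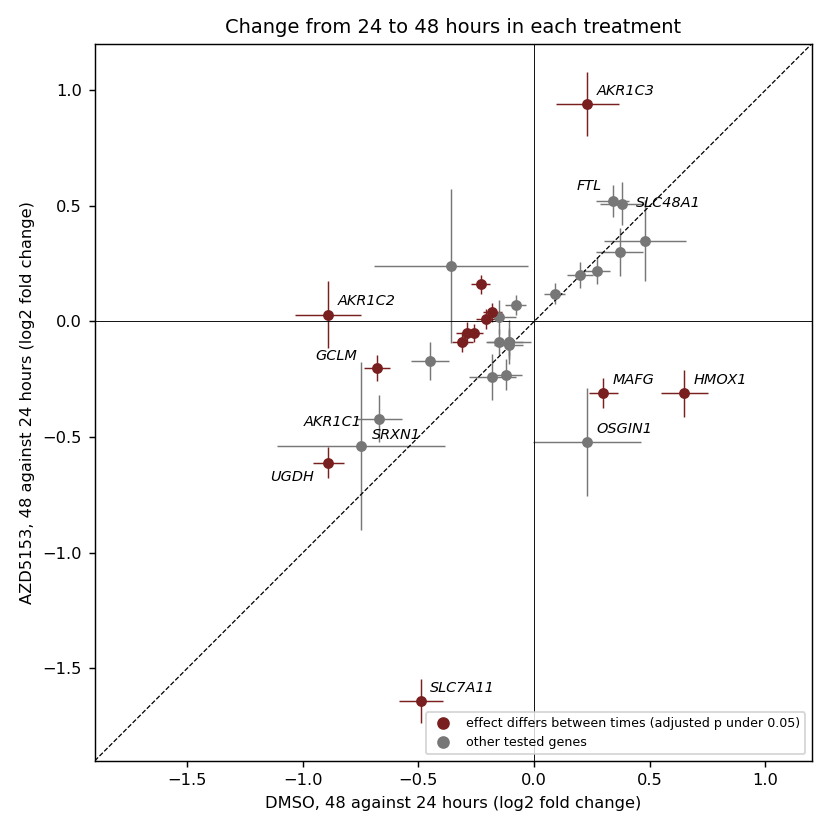
Log2 fold change from 24 to 48 hours in DMSO (horizontal axis) and in AZD5153 (vertical axis) for the 33 tested genes, with standard errors as bars, a dashed line of equal change, and dark red for an effect of AZD5153 that differed between the times. SLC7A11 lies lowest (-0.49 in DMSO, -1.64 in AZD5153), and HMOX1 and MAFG rose in DMSO and fell in AZD5153.

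Levels between genes were compared as normalized counts per kilobase of annotated exon, in group means. The length covers all annotated exons of a gene and can exceed that of its canonical transcript. The 2 lengths were 6710 and 3860 bases for TXNRD1, 9502 and 2996 for TKT, and 2971 and 2521 for NQO1. The orders and overlaps below are those by exon length, and they could differ with transcript length. In DMSO at 24 hours FTL led with 73649 per kb, followed by TXN (7814), PRDX1 (3260), PRDX6 (2963), SOD1 (2614) and FTH1 (2073). With AZD5153 at 48 hours the order was FTL (416602), PRDX1 (17753), TXN (10975), FTH1 (9485), NQO1 (7582) and TXNRD1 (6842). NQO1 stood at 1158 and TXNRD1 at 1184 per kb in DMSO at 24 hours, and their libraries overlapped per length there (3384 to 3547 and 7648 to 8239 normalized counts over 2971 and 6710 bases). The libraries of SOD1 and FTH1 overlapped as well. The lowest tested gene was SRXN1 in DMSO (7.9 per kb at 24 hours and 4.96 at 48 hours) and AKR1B10 in AZD5153 (10.6 and 12.2).

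Genes of the same systems outside the 34 were counted in the same comparisons. Of 109 further genes listed, 104 were tested, and 52 were higher and 29 lower at 24 hours, and 51 higher and 30 lower at 48 hours. These are 50.0% and 27.9% at 24 hours and 49.0% and 28.8% at 48 hours, beside 33.9% and 34.6%, and 33.1% and 33.9%, of all genes, and the sublists below are each of 6 to 22 genes. The median log2 fold change of the 104 genes was 0.19 at both times. These lists, too, were chosen with earlier results of these data known. SQSTM1, which encodes the autophagy receptor p62 that binds KEAP1, read 10578, 13187 and 14242 normalized counts with DMSO and 83974, 84488 and 75631 with AZD5153 at 24 hours. It was 6.42-fold higher at 24 hours (log2 2.69, adjusted p = 1.9e-13) and 2.43-fold higher at 48 hours (1.28, adjusted p = 9.9e-10). BACH1, a repressor that competes with NRF2 for AREs, was lower (-0.32 and -0.54), as was BACH2 (-0.88 and -1.45). Of the 15 regulators listed, 8 were higher and 4 lower at 24 hours, and 6 and 4 at 48 hours.

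In the other systems genes went both ways. Of 14 thioredoxin and peroxiredoxin genes, 8 were higher and 2 lower at 24 hours, and 10 and 3 at 48 hours. TXNRD2, the mitochondrial thioredoxin reductase, was 1.91-fold and 2.15-fold lower (log2 -0.90 and -1.10), while TXNRD3 was 2.37-fold and 2.07-fold higher, and TXNIP, an inhibitor of thioredoxin, was 1.14-fold and 1.60-fold higher. Of 22 tested glutathione genes, 13 were higher and 8 lower at 24 hours, and 10 and 7 at 48 hours. SLC3A2, the heavy chain partner of SLC7A11, was 1.47-fold higher at 24 hours (0.56, adjusted p = 4.4e-05) and overlapped between treatments at 48 hours (0.03, adjusted p = 0.77). GPX4, which reduces lipid peroxides, was 1.72-fold and 2.13-fold higher, and GPX3 was 2.09-fold and 3.57-fold higher. GGT5 went from 63.1, 79.7 and 87.4 normalized counts to 1.34, 4.1 and 4.9 at 24 hours, and from 154, 126 and 111 to 0, 1.09 and 0 at 48 hours.

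Of 16 haem and iron genes, 9 were higher and 5 lower at 24 hours, and 10 and 3 at 48 hours. TFRC, the transferrin receptor through which cells import iron, was 1.54-fold and 2.41-fold higher (log2 0.63 and 1.27), and HMOX2, the constitutive haem oxygenase, was 2.71-fold and 2.56-fold higher. STEAP3, an endosomal iron reductase, was 2.30-fold and 2.69-fold lower. Of 15 tested pentose phosphate and NADPH genes, 3 were higher and 6 lower at 24 hours, and 5 and 7 at 48 hours. NNT, the mitochondrial transhydrogenase that makes NADPH, was 2.99-fold and 2.33-fold lower (-1.58 and -1.22). Of 16 tested carbonyl and quinone genes, 8 were higher and 2 lower at 24 hours, and 7 and 3 at 48 hours. DHRS2 rose from 0, 4.98 and 0.892 to 189, 229 and 166 normalized counts at 24 hours and from 1.80, 4.43 and 3.24 to 47.4, 32.6 and 29.9 at 48 hours, and UGP2, which supplies the substrate of UGDH, was 1.69-fold and 1.58-fold lower. Of 6 superoxide and peroxide genes, 3 were higher at each time, and 2 and 3 lower. CCS, the copper chaperone of SOD1, was 3.09-fold higher at 24 hours and 1.29-fold higher at 48 hours, and MSRA, a methionine sulfoxide reductase, was 1.32-fold and 1.62-fold lower.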

How the data were processed

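RNA-Seq of SF8628 cells was analysed in 12 libraries, 3 per treatment and time. Alignment (STAR, hg38) and gene counting (HTSeq-count) were done by the authors, who deposited the counts after division by DESeq2 size factors (a signal, not raw counts). Versions, annotation and strand setting are not given in the sources used here. Whole reads, and with them the depth of 15759148 to 27335220 reads, could be recovered, since 100% of values were multiples of a fixed step per library (tolerance 0.001). The table also holds the authors' own mean, fold change, standard error and p-values, which were not used. The JQ1 data and the 5 CUT&RUN samples were not analysed here.

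Genes with a mean of at least 10 were tested with limma 3.58.1 in R 4.3.3 (lmFit and eBayes with trend) on log2(normalized count + 1), with the 4 groups in 1 fit and Benjamini-Hochberg adjustment over all 15599 genes at a threshold of 0.05. Fold changes on this scale understate the change of low genes, and the folds in the text are ratios of group means. On simulated data with a log2 change of 1 for 199 of 15456 genes, 77.4% were recovered at 24 hours and 77.9% at 48 hours, with 4.35% and 4.32% of calls false. In the real data far more genes were called (33.9% higher and 34.6% lower at 24 hours), so these rates do not carry over to them.

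The members and lists were chosen with earlier results of these data known. All members are named. Of the further genes, the text names the largest rise and the largest fall over both times in each list among those past the threshold at both times, and BACH1, SQSTM1, TXNIP, SLC3A2, GPX4 and TFRC by role, and 1 gene that the rule names is not reported here. Of 109 further genes, 108 were matched in the table. Positions and overlaps are from GENCODE (hg38, 60463 of 60664 identifiers matched), promoter windows from RefSeq. Alternatives were other pseudocounts (0.5 and 10), minimum means (none and 100), scalings, a replicate block, fits of the compared groups alone, edgeR 4.0.16 and DESeq2 1.42.0 on the recovered reads, and leaving out each library.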

Additional observations from a re-analysis of the deposited data

Results flagged for a closer look

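For the members and further genes below, the effect of AZD5153 on the log2 scale differed between 24 and 48 hours by the interaction term of the limma fit, and each value is the effect at 48 hours minus that at 24 hours. Among the members the differences were -1.15 for SLC7A11 (adjusted p = 2.4e-05), -0.97 for HMOX1 (0.0002), -0.61 for MAFG (0.0002), 0.92 for AKR1C2 (0.0039), 0.71 for AKR1C3 (0.015), 0.48 for GCLM (0.0005) and 0.39 for PRDX1 (0.00019). Smaller differences were found for UGDH (0.27, adjusted p = 0.0499), TXN (0.25, 0.012), PRDX6 (0.22, 0.016), GSR (0.22, 0.017), NQO1 (0.22, 0.011) and TXNRD1 (0.21, 0.011). MAFG alone among them was called in opposite directions at the times.

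Among the further genes of these systems the largest were -3.23 for DHRS2 (adjusted p = 0.0051) and -2.45 for GGT5 (0.0079), both of which have groups near 0 counts, so that these fitted values depend on the count of 1 added before the log. SQSTM1 differed by -1.41 (8.3e-07), CCS by -1.25 (0.00015) and SLC3A2 by -0.53 (0.0068). GPX3 differed by 0.77 (0.00016), TFRC by 0.64 (7.4e-06), TXNIP by 0.49 (2.3e-05), NNT by 0.36 (0.0064) and GPX4 by 0.31 (0.012). CDKN1A, read as a check of BET inhibition, differed by -0.75 (0.0017).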

How the results depend on the processing

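Of the 66 effects of AZD5153 on members at 24 and 48 hours, 50 kept their direction and their side of the threshold under each alternative run, 14 crossed the threshold under at least 1, and TKT changed sign at both times. TKT was lower with quantile normalization at 24 hours (-0.19, adjusted p = 0.0013) and 48 hours (-0.25, adjusted p = 0.00014) and with equal library totals at 48 hours (-0.11, adjusted p = 0.034), a sign change being counted where either value passed. Equal totals moved the median of all genes by -0.12 at 24 hours and -0.17 at 48 hours, and the other scalings by less than 0.1. Members with a higher effect at 48 hours numbered 5 in place of 10 with quantile normalization. Members lower at 48 than at 24 hours with AZD5153 numbered 4 with scaling to 7 stable genes and 12 with only the groups compared, in place of 7, and further genes with a lower effect at 48 hours numbered 19 with equal totals and with edgeR, in place of 11. The cause was not tested. Leaving out 1 library gave 20 to 22 members higher and 5 to 8 lower at 24 hours, 22 to 23 higher and 5 to 6 lower at 48 hours, 9 to 12 with a higher and 3 to 4 with a lower effect at 48 hours, 7 to 10 higher and 12 to 16 lower over time in DMSO, and 5 to 6 of each over time with AZD5153. With a pseudocount of 10, SRXN1 at 48 hours fell from 2.06 to 1.46.

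With replicate number as a replicate block, 22 members were higher and 7 lower at 24 hours and 23 and 7 at 48 hours, as without it, and the interaction gave 9 and 3, UGDH being lost (0.27, adjusted p = 0.073). Deviations from the group mean had correlations of -0.151 to 0.0363 over 18 combinations of libraries with the same number. Over 36 combinations with other numbers they were -0.109 to 0.154. The numbers thus marked no shared deviation, but whether libraries were paired by culture or batch cannot be told from these values. Genes of low counts (SRXN1, AKR1B10, GPX2) are limited by depth, and the spread rests on 3 libraries per group.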
